A study of Homo sapiens with 6 samples.

Results

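The genes described here are 35 genes of sterol and fatty acid synthesis, chosen as a list of symbols. Earlier results of these data were known when they were chosen. They were matched to rows of a table of 31814 genes. All 35 were found, each in a single row, and all 35 passed the filter on low values (1 TPM or more in at least 3 of 6 libraries), as did 17596 genes in all. All but ACACB were at 1 TPM or more in every vehicle library. TPM is a read count divided by gene length and scaled to a fixed library total, so levels can be compared between genes. The libraries hold messenger RNA of the human cell line H69. Cells were kept for 24 h in 1 µM trichostatin A (TSA) or in DMSO (vehicle), and each group has 3 libraries. TSA is an inhibitor of histone deacetylases, which take acetyl groups off histones and off many further proteins. One label of the exposed samples says HSA where the series text has TSA. The name TSA is kept here. The labels name no tissue for the line. Nor do they state that replicate libraries are separate cultures, and the spread behind each p-value may therefore be technical.

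Cells make cholesterol from acetyl-CoA through mevalonate, isoprenoid units, squalene and lanosterol, and make long-chain fatty acids from the same acetyl-CoA through malonyl-CoA and the enzyme fatty acid synthase. Both routes are governed by the sterol regulatory element-binding proteins (SREBPs), transcription factors held in the endoplasmic reticulum by SCAP and the INSIG proteins while sterols are plentiful and released by cleavage in the Golgi when sterols run low. As background, the product of SREBF2 acts mainly on sterol genes, and the main products of SREBF1 act on fatty acid genes or on both.

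Of the 35 genes, 18 rose and 11 fell with TSA, and 6 did not pass the test (limma, Benjamini-Hochberg adjusted over all tested genes, threshold 0.05). Among all tested genes 28% rose and 34.2% fell, 62.2% in either direction. The median log2 fold change of the 35 genes was 0.43, against −0.10 over all tested genes. Of the 34 genes at 5 TPM or more in every vehicle library, 17 rose and 11 fell. Among all genes at that level 23.3% rose and 42.5% fell. The sterol enzymes and the fatty acid enzymes were called mostly in opposite directions. Of 16 enzymes of the mevalonate and squalene steps 10 rose and 1 fell. Of 10 enzymes listed under fatty acid synthesis, elongation and desaturation 7 fell and 2 rose. Among those 7, ACLY, SCD and ACACA lost their call under 7, 6 and 4 of 21 other settings. Among the 10 sterol enzymes that rose, HSD17B7 lost its call under 3. The difference between these lists was not tested. Outside the 35 genes, those of fatty acid synthesis and supply had 7 of 10 tested genes higher and 2 lower. Further genes of elongation and desaturation had 6 of 11 tested genes higher and 2 lower. TSA and vehicle libraries were fully separated in 31 of the 35 genes, against 67% of all tested genes. The authors' deposited table, from their own likelihood ratio test, has 18 of the 35 genes higher and 7 lower at an FDR under 0.05, with 58.8% of the genes tested here under that FDR in either direction. The calls of that table and of limma were the same for 31 genes and differed for ACLY, SCD, ACSL4 and STARD4, called lower here and not in the table.

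The libraries held 22533307 to 26148651 reads, as recovered from the deposited values. Mitochondrial transcripts made up 4.97% to 12.3% of TPM in vehicle and 7.65% to 16.9% in TSA. For each library the median deviation (log2) of genes from their mean over all libraries was taken for the 25% of genes with the longest transcripts, less that of the 25% with the shortest. It was 0.02 to 0.29 in vehicle and −0.30 to 0.00 in TSA, so long transcripts were measured lower in TSA as a class. Among neuroendocrine markers INSM1 (mean 614 ± 77.4 TPM in vehicle and 24.7 ± 4.93 TPM in TSA, SD, n = 3), DDC (255 ± 26.6 and 18.2 ± 5.27 TPM) and CHGB (157 ± 23.9 and 86.7 ± 4.30 TPM) fell. CHGA (138 ± 18.7 and 239 ± 5.01 TPM) and SCG3 (170 ± 14.2 and 240 ± 6.75 TPM) rose, and SYP (140 ± 16.1 and 128 ± 7.65 TPM) did not pass the test. Markers of bile duct epithelium, led by EPCAM and KRT19, summed to 748 to 953 TPM in vehicle and 265 to 384 in TSA. KRT7 of that list fell as well, while SOX9 rose from 15.9 ± 1.67 to 23.0 ± 2.33 TPM. The summed levels of the lists for other cells stayed low: fibroblast markers were at 0.211 to 0.906 TPM in vehicle and 5.32 to 7.20 in TSA, most of it COL1A1, with COL1A2, LUM, DCN and PDGFRB at 0 in every vehicle library. Leukocyte markers summed to at most 4.95 TPM, hepatocyte markers to at most 2.22 and adipocyte markers to at most 0.391 TPM in any library. The part of these markers in the results below was not tested. In bulk RNA, fewer cells of a type and less RNA per cell cannot be told apart.

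To show the DNA before some of these genes, the 250 bases ahead of each RefSeq transcript start (GRCh38.p14) were searched on both strands for the classic sterol regulatory element, a run of 10 bases whose letters are the capitals of the SREBF2 stretch below, for its shorter and looser form TCACNCCAC, which every match of the first contains, for CCAAT, the box bound by NF-Y, a known partner of SREBPs, and for the E-box CACGTG. RefSeq windows were at hand for 31 of the 35 genes, 46 windows in all because some genes have several starts. The 10-base element was in 0.0342% of all 35116 windows and, among the 35 genes, only before SREBF2. TCACNCCAC was in 0.883% of all windows, and among these genes before SREBF2 and ACSL1. CCAAT was in 32% of all windows and in 26 of the 46 windows here (56.5%). By gene, 11 of 13 sterol enzymes with a window held it (84.6%), against 42.1% of the 10006 tested genes with a window. It was before 13 of 16 genes that rose, 5 of 9 that fell and 4 of 6 that were not called. CACGTG was in 6.34% of all windows and before SC5D, SCAP, INSIG1 and ELOVL5. The GC box GGGCGG, also searched for, was in 42.6% of all windows and in 37 of the 46 windows here (80.4%). A higher share than over all windows was thus not limited to CCAAT. A match is a description of the letters and not evidence of binding, and a window without one says nothing about the factor. The stretches below are from the genes that encode the SREBPs, the feedback protein INSIG1 and 4 sterol enzymes that rose. They are written 5′ to 3′ on the strand of the gene and leave out annotated exons (except for 30 bases of SREBF2). Matches to the motifs other than the GC box are in capitals, with ATTGG as CCAAT on the other strand.
SREBF2 (chr22:41832961-41832990, plus strand, from 144 to 115 bases before the start): atgacgcgccATCACCCCACgcaccgcttc
SREBF1 (chr17:17837003-17837236, minus strand, from 250 to 17 bases before the start): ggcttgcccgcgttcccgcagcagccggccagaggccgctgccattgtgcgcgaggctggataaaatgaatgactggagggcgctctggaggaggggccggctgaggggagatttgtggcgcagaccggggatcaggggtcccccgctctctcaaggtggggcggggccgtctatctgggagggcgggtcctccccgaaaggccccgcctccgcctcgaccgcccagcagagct
INSIG1 (chr7:155297628-155297775, plus strand, from 250 to 103 bases before the start): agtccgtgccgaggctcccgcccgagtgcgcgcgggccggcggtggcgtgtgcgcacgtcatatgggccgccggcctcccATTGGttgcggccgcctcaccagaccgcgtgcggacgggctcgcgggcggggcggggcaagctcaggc
MVD (chr16:88663162-88663297, minus strand, from 206 to 71 bases before the start): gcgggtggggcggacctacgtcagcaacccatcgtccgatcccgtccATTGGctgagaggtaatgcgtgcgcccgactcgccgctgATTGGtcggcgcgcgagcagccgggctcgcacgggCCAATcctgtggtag
LSS (chr21:46228825-46229024, minus strand, from 250 to 51 bases before the start): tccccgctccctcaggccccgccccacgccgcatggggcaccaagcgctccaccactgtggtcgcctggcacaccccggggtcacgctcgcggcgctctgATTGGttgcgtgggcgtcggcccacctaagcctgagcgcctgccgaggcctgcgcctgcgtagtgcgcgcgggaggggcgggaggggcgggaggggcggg
NSDHL (chrX:152830813-152830966, plus strand, from 250 to 97 bases before the start): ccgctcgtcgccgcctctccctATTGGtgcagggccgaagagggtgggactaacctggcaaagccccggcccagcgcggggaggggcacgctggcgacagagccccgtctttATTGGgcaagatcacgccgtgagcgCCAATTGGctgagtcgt
DHCR7 (chr11:71448436-71448643, minus strand, from 250 to 43 bases before the start): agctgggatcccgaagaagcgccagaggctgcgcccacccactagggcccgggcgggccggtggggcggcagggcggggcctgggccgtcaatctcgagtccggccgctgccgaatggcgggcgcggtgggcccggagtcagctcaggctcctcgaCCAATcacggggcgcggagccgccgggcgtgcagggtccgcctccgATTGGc
In the SREBF2 stretch the capitals are the sterol regulatory element, 125 bases from the start at its near end. The stretch of SREBF1 has no capitals. MVD has 3 CCAAT boxes in its stretch, LSS and INSIG1 have 1 each there, and in NSDHL a pair of boxes on opposite strands overlaps in the run CCAATTGG.

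**Figure D1:**
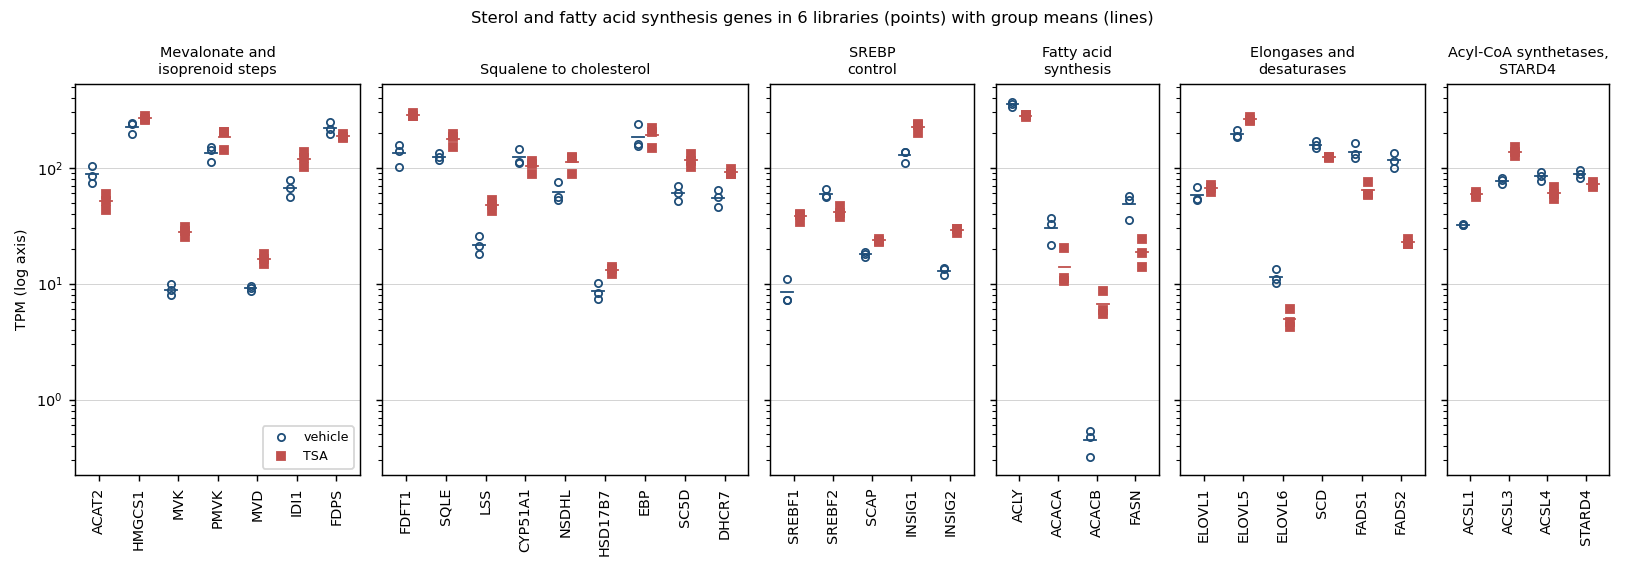
TPM (log axis) of each of the 35 genes in the 3 vehicle (open circles) and 3 TSA libraries (filled squares), with lines at the group means, in panels by role. SREBF1, MVK and ACACB stand clearly higher in TSA and FADS2 clearly lower, while the points of EBP, CYP51A1, PMVK and ELOVL1 overlap between the groups.

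The genes for the SREBPs themselves moved in opposite directions. SREBF1 was at 10.9, 7.29 and 7.22 TPM in vehicle libraries 1, 2 and 3 and at 39.4, 34.2 and 40.3 TPM in TSA libraries 1, 2 and 3. Every TSA library was far above every vehicle library, a 4.48-fold rise of the mean (log2 fold change 2.06, standard error 0.17, adjusted p 9.6e-05). SREBF2 was at 65.3, 55.9 and 57.3 TPM in vehicle and 46.9, 37.7 and 40.5 TPM in TSA, again without overlap, and fell by 0.50 on the log2 scale (standard error 0.11, adjusted p 0.0078). The ratio of SREBF1 to SREBF2 TPM was thus 0.126 to 0.167 in vehicle and 0.841 to 0.995 in TSA, so that SREBF1 came close to the level of SREBF2. RAI1, a gene on the opposite strand that shares 556 of 8030 exonic bases of SREBF1 in GENCODE 29, went the opposite way, with means of 13.7 and 1.85 TPM. Whether the authors counted by strand is unknown here, and reads from overlapping exons could not be told apart.

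SCAP and the INSIG genes, which hold SREBPs in check or escort them, all rose. INSIG1, itself a well-known SREBP target, had 137, 138 and 109 TPM in vehicle and 201, 238 and 232 TPM in TSA (log2 fold change 0.81, standard error 0.13, adjusted p 0.0015). INSIG2, its relative, went from 11.8, 13.4 and 13.6 TPM to 29.4, 29.8 and 27.5 TPM (log2 fold change 1.10, standard error 0.11, adjusted p 0.00015). INSIG1 stayed the more abundant of this pair, at 8.01 to 11.6 times the TPM of INSIG2 in vehicle and 6.85 to 8.42 times in TSA, ranges that overlap. SCAP, the sterol sensor that carries SREBPs to the Golgi, was at 16.9 to 18.9 TPM in vehicle and 23.1 to 24.5 TPM in TSA, a small rise (log2 fold change 0.39, adjusted p 0.012). SCAP missed the threshold after removal of length and GC trends (adjusted p 0.052) and without TSA replicate 2 (adjusted p 0.054).

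Among the 7 mevalonate and isoprenoid enzymes 3 rose, 1 fell and 3 did not pass the test. Among all tested genes 28% rose and 34.2% fell. The rise was greatest in MVK, mevalonate kinase, which went from 8.77, 10.0 and 7.92 TPM to 30.9, 25.2 and 28.2 TPM, a 3.16-fold difference of the means (log2 fold change 1.56, standard error 0.13, adjusted p 9.9e-05). Its neighbour MMAB on the opposite strand, which shares 306 of its 6480 exonic bases, had a mean of 19.7 TPM in vehicle and 10.6 TPM in TSA. MVD, the decarboxylase that makes isopentenyl diphosphate, was at 9.59, 9.18 and 8.65 TPM in vehicle and 16.2, 14.8 and 18.2 TPM in TSA (log2 fold change 0.78, adjusted p 0.0016). IDI1, the isomerase that follows it, was at 67.3, 78.4 and 56.2 TPM in vehicle and 101, 136 and 121 TPM in TSA (log2 fold change 0.82, adjusted p 0.0041). None of these 3 enzymes had overlapping groups.

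The entry step went the other way. ACAT2, the cytosolic thiolase that joins acetyl-CoA units, was at 84.7, 104 and 74.5 TPM in vehicle and 43.2, 59.4 and 51.9 TPM in TSA, and fell by 0.75 on the log2 scale (adjusted p 0.0066). It was the lone gene of the sterol enzymes to fall. Several genes on the opposite strand overlap ACAT2. Of its 4299 exonic bases SOD2-OT1 shares 1458 and SOD2 shares 1141, and no level was matched to either here. TCP1 shares 397 and had means of 214 TPM in vehicle and 267 TPM in TSA. HMGCS1, HMG-CoA synthase, had 194 to 244 TPM in vehicle and 259 to 282 TPM in TSA. Its groups did not overlap, but the difference missed the threshold (log2 fold change 0.26, 95% confidence interval −0.02 to 0.54, adjusted p 0.095), which it passed under 5 of 21 other settings (adjusted p 0.0079 to 0.28 over all of them). PMVK, phosphomevalonate kinase, was at 112 to 150 TPM in vehicle and 143 to 204 TPM in TSA (log2 fold change 0.43, adjusted p 0.078), and passed without TSA replicate 1 (log2 fold change 0.60, adjusted p 0.0093) and under 6 other settings, with 0.0031 to 0.25 over all 21. FDPS, farnesyl diphosphate synthase, was at 197 to 249 TPM in vehicle and 181 to 196 TPM in TSA (log2 fold change −0.22, interval −0.49 to 0.04, adjusted p 0.13). With length and GC trends removed it was called lower (log2 fold change −0.39, adjusted p 0.0089). Several processed pseudogenes resemble FDPS, so reads could have been shared with them. Of those with a row in the table FDPSP8 was the highest, with means of 1.128 TPM in vehicle and 0.717 TPM in TSA.

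Of the 9 enzymes from squalene to cholesterol 7 rose and none fell, against 28% and 34.2% of all tested genes. Their median log2 fold change was 0.73. FDFT1, squalene synthase, the first enzyme committed to sterols, rose from 139, 158 and 101 TPM to 279, 296 and 279 TPM (log2 fold change 1.12, standard error 0.17, adjusted p 0.0011). LSS, which closes squalene epoxide into lanosterol, rose from 25.7, 21.1 and 18.0 TPM to 52.8, 42.4 and 48.0 TPM (log2 fold change 1.12, standard error 0.15, adjusted p 0.00076). Each was more than 2-fold higher in the mean, at ratios of 2.15 and 2.21, and neither showed overlap between the groups. An antisense gene that shares 448 of 7238 exonic bases of LSS, AP001468.1, had means of 7.65 TPM in vehicle and 10.2 TPM in TSA. SQLE, squalene epoxidase, a rate-limiting step, rose less, from 116 to 134 TPM in vehicle to 152 to 195 TPM in TSA (log2 fold change 0.50, adjusted p 0.01).

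The late steps that trim lanosterol to cholesterol rose in 4 further enzymes, among them SC5D, the lathosterol oxidase, from 60.3, 69.1 and 52.1 TPM to 102, 132 and 115 TPM (log2 fold change 0.94, adjusted p 0.0013). NSDHL, a sterol dehydrogenase of the demethylation steps, was at 56.1, 75.6 and 53.1 TPM in vehicle and 87.9, 124 and 122 TPM in TSA (log2 fold change 0.85, adjusted p 0.0073). DHCR7, which makes cholesterol from its last precursor, was at 45.9 to 63.9 TPM in vehicle and 88.0 to 98.2 TPM in TSA (log2 fold change 0.73, adjusted p 0.003). HSD17B7, the keto-reductase of the same demethylation steps, moved from 7.43 to 10.2 TPM in vehicle to 12.2 to 13.9 TPM in TSA (adjusted p 0.015), a call that ended without vehicle replicate 3 (0.051), without TSA replicate 2 (0.05 after rounding) and without TSA replicate 3 (0.062). Its pseudogene HSD17B7P2 had means of 1.67 and 2.66 TPM in vehicle and TSA. CYP51A1, the lanosterol demethylase, and EBP, a sterol isomerase, overlapped between the groups. CYP51A1 was at 111 to 145 TPM in vehicle and 88.6 to 115 TPM in TSA (interval of the log2 fold change −0.59 to 0.12), and EBP at 154 to 238 and 147 to 221 TPM (interval −0.48 to 0.58). The summed level of the 16 sterol enzymes was 1480, 1754 and 1341 TPM in the vehicle libraries and 1784, 2144 and 2045 TPM in the TSA libraries, which did not overlap.

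**Figure D2:**
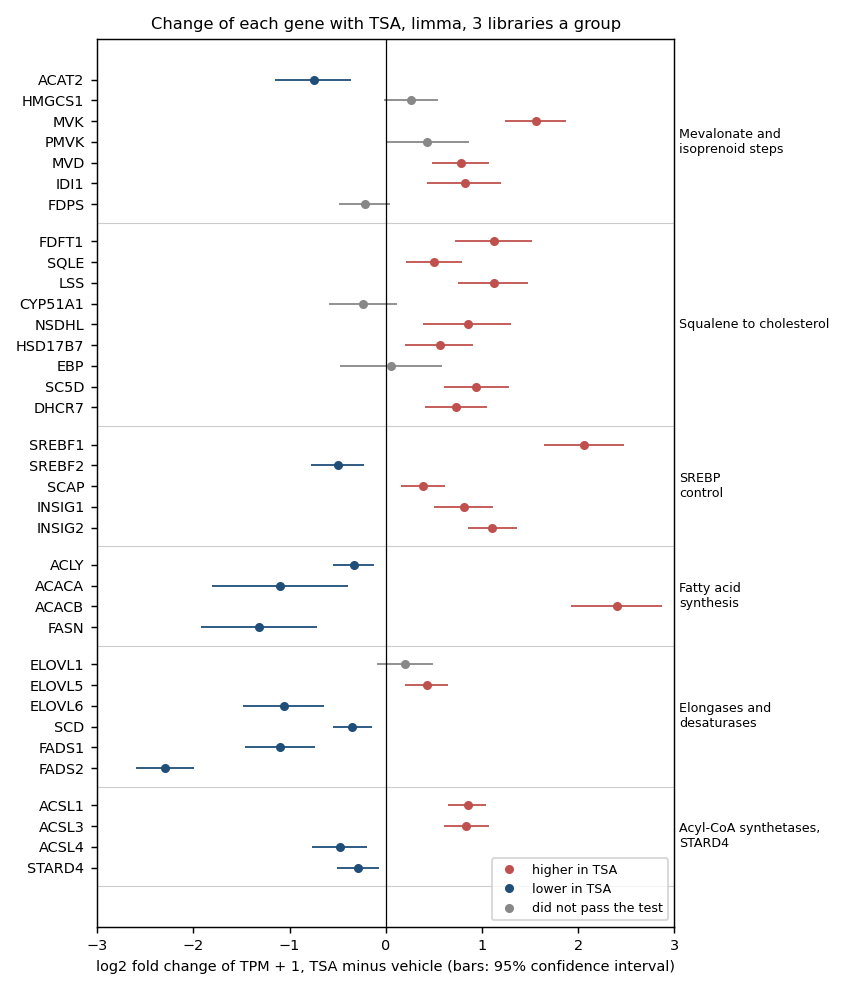
Log2 fold change of TPM + 1 (TSA minus vehicle) of each gene from limma, with bars for the 95% confidence interval, grouped by role and coloured by call. Points of the squalene to cholesterol enzymes lie mostly to the right of 0, from −0.24 for CYP51A1 to 1.12 for FDFT1 and LSS, and those of the desaturases lie to the left, down to −2.29 for FADS2.

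Of the 4 genes listed as fatty acid synthesis enzymes, 3 fell and 1, ACACB, rose, against 34.2% and 28% of all tested genes. FASN, fatty acid synthase, was at 57.3, 35.2 and 52.3 TPM in vehicle and at 24.2, 13.9 and 18.3 TPM in TSA, a 2.57-fold fall of the mean (log2 fold change −1.32, standard error 0.25, adjusted p 0.0034). The acetyl-CoA carboxylases, which make malonyl-CoA, diverged. ACACA, the cytosolic form, was at 37.2, 21.6 and 32.8 TPM in vehicle and 20.2, 10.5 and 11.1 TPM in TSA (log2 fold change −1.10, standard error 0.30, adjusted p 0.016). ACACB, the form at the mitochondrial surface, was near 0 in vehicle at 0.539, 0.472 and 0.319 TPM and reached 8.72, 5.43 and 5.98 TPM in TSA, a 15.1-fold difference of the means. It passed the filter only through the TSA libraries, and so was tested only because it was high there (log2 fold change 2.40 on the TPM + 1 scale, standard error 0.20, adjusted p 8.9e-05, and 4.04 from recovered reads). ACACA therefore stood at 45.7 to 103 times the TPM of ACACB in vehicle and at 1.85 to 2.32 times in TSA. ACLY, which splits citrate into acetyl-CoA and had the highest mean of the 35 genes in vehicle, was at 358, 368 and 335 TPM in vehicle and 284, 285 and 273 TPM in TSA (log2 fold change −0.33, adjusted p 0.016).

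ACACA and FASN have long transcripts, 9961 and 8565 nt at the longest against a median of 2936 nt over tested genes, and long transcripts were lower in TSA as a class. With length and GC trends removed from each library, the log2 fold change of ACACA was −0.70 (adjusted p 0.0015) and that of FASN −1.22 (adjusted p 0.00012), so both kept their direction and call. ACACB, at 9360 nt, is as long and had a log2 fold change of 2.63 in that setting. The call of ACACA ended without vehicle replicate 1 (adjusted p 0.053), vehicle replicate 3 (0.058), TSA replicate 2 (0.051) or TSA replicate 3 (0.056). With length and GC trends removed 18 of the 35 genes were higher and 8 lower, against 32.6% and 33% of all genes. The call of ACLY ended under a median-of-ratios scaling (0.21), a quantile scaling (0.061), with length and GC trends removed (0.078), with recovered reads (0.21) and without vehicle replicate 1, TSA replicate 2 or TSA replicate 3 (0.054 to 0.084).

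The front-end desaturases, which make polyunsaturated fatty acids, both fell, and FADS2 had the most negative log2 fold change of the 35 genes. It was at 114, 135 and 99.5 TPM in vehicle and 21.9, 22.1 and 24.3 TPM in TSA, a 5.11-fold fall of the mean with a wide gap between the groups (log2 fold change −2.29, standard error 0.13, adjusted p 2.0e-05). FADS1, which acts after it in the same route, was at 131, 162 and 122 TPM in vehicle and 74.9, 59.1 and 58.1 TPM in TSA (log2 fold change −1.10, standard error 0.15, adjusted p 0.00072). They lie side by side on chromosome 11 on opposite strands. The RefSeq start of FADS1 at position 61817003 (GRCh38.p14) is 599 and 800 bases from the starts of FADS2 at 61816404 and 61816203, inside the region that FADS2 transcripts cover, and GENCODE 29 has 490 exonic bases in both genes. Reads of these bases could not be assigned by strand here. All annotated exons of FADS1 and FADS2 cover 10230 and 11026 bases, and their longest transcripts are 4525 and 5073 nt. The part of shared reads in the fall of both genes was not tested. The TPM of FADS1 was 1.15 to 1.23 times that of FADS2 in vehicle and 2.39 to 3.41 times in TSA.

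SCD, the stearoyl-CoA desaturase that makes oleate, fell little. It was at 169, 148 and 156 TPM in vehicle and 125, 121 and 125 TPM in TSA (log2 fold change −0.35, adjusted p 0.011). Its call ended under both other scalings (adjusted p 0.11 and 0.12), with length and GC trends removed (log2 fold change −0.07, adjusted p 0.58), with recovered reads (0.14) and without TSA replicate 2 (0.05 after rounding). ELOVL6, the elongase that takes palmitate to stearate, fell from 10.1 to 13.3 TPM in vehicle to 6.09, 4.63 and 4.24 TPM in TSA (log2 fold change −1.06, standard error 0.18, adjusted p 0.0019), and by 0.64 with length and GC trends removed (adjusted p 0.0024). ELOVL5, an elongase of polyunsaturated chains, rose from 184 to 210 TPM in vehicle to 252 to 273 TPM in TSA (log2 fold change 0.43, adjusted p 0.0067). It thus went against FADS1 and FADS2, with which it shares a route. ELOVL1, an elongase of very long chains, was at 52.8 to 67.9 TPM in vehicle and 62.1 to 70.5 TPM in TSA. It missed the threshold (interval −0.09 to 0.49, adjusted p 0.2) and passed it without vehicle replicate 2 (log2 fold change 0.31, adjusted p 0.039).

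The long-chain acyl-CoA synthetases, which activate fatty acids for use, also split. ACSL1 rose from 31.9, 32.8 and 32.3 TPM to 58.9, 61.8 and 56.3 TPM (log2 fold change 0.85, standard error 0.08, adjusted p 0.00015). ACSL3, linked to lipid droplets, rose from 72.1, 77.9 and 80.9 TPM to 127, 151 and 136 TPM (log2 fold change 0.83, standard error 0.10, adjusted p 0.0004). ACSL4, which prefers arachidonate and is known for its part in ferroptosis, went from 85.7, 77.1 and 91.3 TPM to 68.3, 59.7 and 53.6 TPM (log2 fold change −0.48, adjusted p 0.011). After removal of length and GC trends ACSL4 stood at −0.09 (adjusted p 0.35). ACSL3 and ACSL4 were about level in vehicle, at ratios of 0.841 to 1.01, and ACSL3 was at 1.86 to 2.54 times ACSL4 in TSA. STARD4, a sterol transfer protein, was at 81.2 to 95.3 TPM in vehicle and 68.7 to 75.6 TPM in TSA (log2 fold change −0.29, adjusted p 0.032). Its call is the least stable of the 35 genes, lost or turned under 12 of 21 other settings, among them each left-out library except vehicle replicate 3, and at 0.07 (adjusted p 0.65) with length and GC trends removed.

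**Figure D3:**
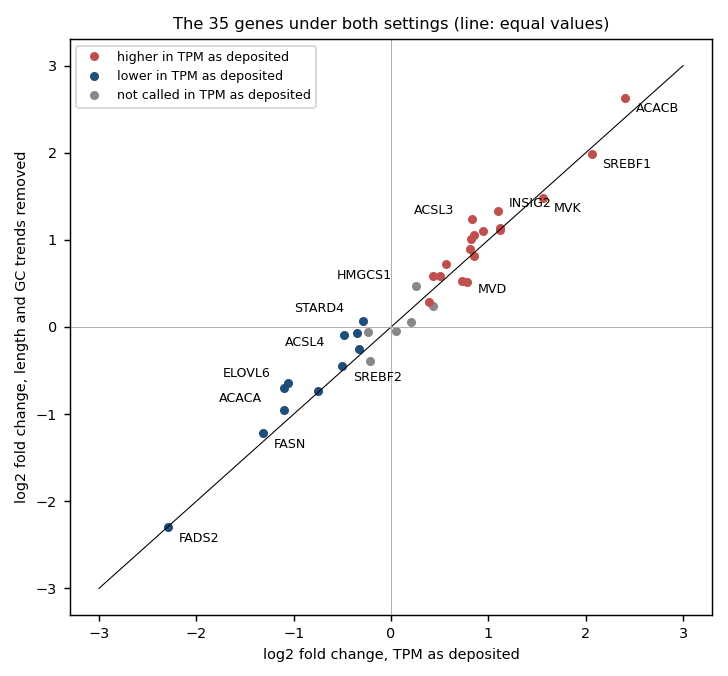
Log2 fold change of each of the 35 genes with TPM as deposited (horizontal) and with length and GC trends removed from each library (vertical), coloured by the call with TPM as deposited. Most points lie near the line of equal values, STARD4 and ACSL4 move to about 0, and ACACA and ELOVL6 stay negative at −0.70 and −0.64.

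Other genes of the same pathways were taken from lists made for this purpose, with earlier results of these data known. For the counts of each list below, 28% of all tested genes rose and 34.2% fell. Of 13 tested further sterol pathway enzymes 6 rose and 2 fell. TM7SF2, a sterol reductase, had means of 31.9 ± 2.71 and 103 ± 22.2 TPM in vehicle and TSA (SD, n = 3) (log2 fold change 1.63, adjusted p 0.00026), and POR, the reductase that feeds electrons to CYP51A1 and squalene epoxidase, from 36.6 to 47.6 TPM to 109 to 153 TPM (log2 fold change 1.69, adjusted p 0.00016). PDSS1, which makes the side chain of coenzyme Q, fell by 1.29 on the log2 scale (adjusted p 0.0002). Of 15 genes of SREBP processing and sterol sensing 8 fell and 4 rose, with a median of −0.46 against −0.10 over all tested genes. RNF145, a ubiquitin ligase of the sterol-sensing machinery, had means of 142 ± 5.51 and 46.0 ± 3.07 TPM and fell by 1.61 on the log2 scale (adjusted p 1.8e-05). SEC23A, a coat protein of the vesicles that carry cargo to the Golgi, had means of 37.2 ± 1.05 and 13.2 ± 0.991 TPM (adjusted p 4.4e-05).

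Of 17 tested genes of sterol uptake, storage and efflux, 16 of them at 1 TPM or more in all vehicle libraries, 10 rose and 4 fell. SOAT1, which esterifies cholesterol for storage, went from a mean of 2.26 ± 0.28 TPM in vehicle to 48.4 ± 2.93 TPM in TSA (SD) (log2 fold change 3.92, adjusted p 5.5e-06). The lysosomal genes NPC2, a cholesterol carrier, and LIPA, the acid lipase that frees cholesterol from its esters, rose as well, with means from 10.9 to 100 TPM and from 5.98 to 41.7 TPM (adjusted p 1.9e-05 and 4.3e-05).

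Of 10 tested genes of fatty acid synthesis and its supply outside the 35 genes 7 rose and 2 fell. ACSS2, which makes acetyl-CoA from acetate, rose from 13.6, 15.7 and 10.7 TPM to 47.8, 50.5 and 51.5 TPM (log2 fold change 1.84, adjusted p 7.4e-05). MLXIPL, a glucose-responsive transcription factor of lipid synthesis genes, rose from 2.83 ± 1.02 to 20.5 ± 5.15 TPM (adjusted p 0.00025). MID1IP1, an activator of acetyl-CoA carboxylase, fell from 70.7 to 73.5 TPM to 23.4 to 25.2 TPM (adjusted p 1.7e-05). Of 11 tested genes of elongation and desaturation 6 rose and 2 fell. ELOVL3, an elongase of very long chains, was at 0.218, 0.116 and 0.103 TPM in vehicle and at 19.7, 37.4 and 32.9 TPM in TSA (adjusted p 1.7e-05). Since every vehicle library was under 1 TPM, ELOVL3 was tested only because of its level in TSA. Of these 11 genes 9 were at 1 TPM or more in all vehicle libraries. FADS3, the neighbour of FADS2 in the same gene cluster, rose from 6.86, 6.08 and 4.77 TPM to 41.5, 36.0 and 42.8 TPM (log2 fold change 2.58, adjusted p 2.4e-05), against the fall of FADS1 and FADS2. ELOVL2, an elongase of polyunsaturated chains, fell by 1.42 (adjusted p 2.0e-05), with 82.5 ± 1.78 TPM in vehicle and 30.1 ± 1.25 TPM in TSA.

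**Figure D4:**
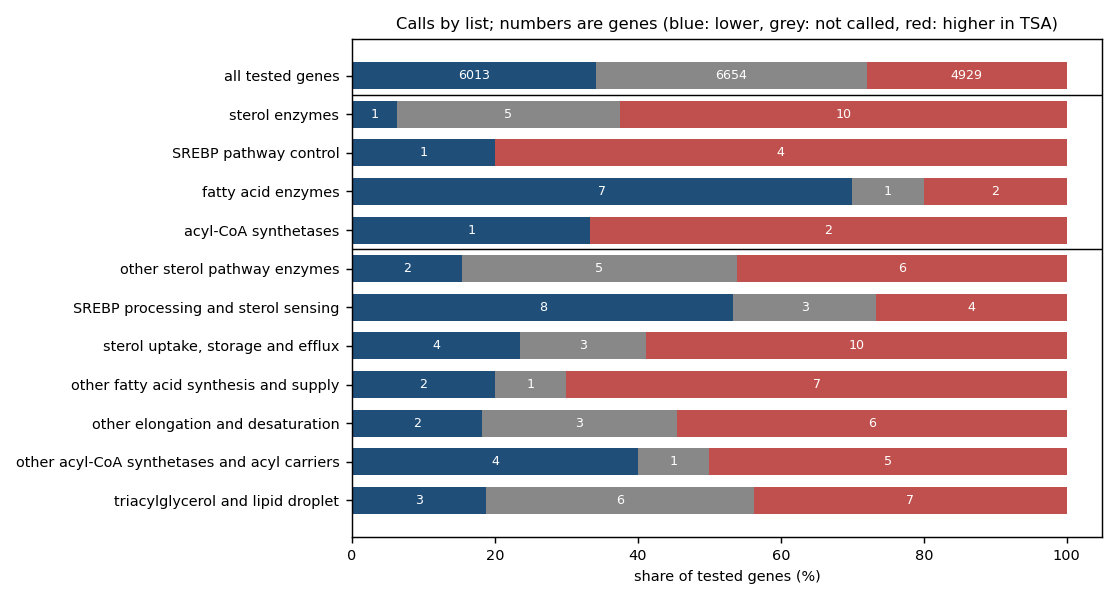
Share of tested genes in each list that were lower (blue), not called (grey) or higher (red) in TSA, with the number of genes in each bar; the top bar is all tested genes, the next 4 are the 35 genes without STARD4, and the rest are other lists of the same pathways. The fatty acid enzymes have 7 of 10 genes lower and the sterol enzymes 10 of 16 higher. Among these, the calls of ACLY, SCD, ACACA and HSD17B7 were lost under some other settings.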

How the data were processed

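The authors deposited TPM values for 31814 genes. Tools named in the submitters' processing notes, without roles, are STAR 2.5.3a, featureCounts, edgeR, FastQC 0.11.2 and Picard 1.127, on hg19. The name of the TPM table gives GENCODE 19. A strand setting is not given. Per the file headers, the authors' deposited results table holds log2 fold changes, log2 mean levels, a likelihood ratio score, a p-value and an FDR.

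The test was limma 3.58.1 in R 4.3.3 (eBayes with trend) on log2(TPM + 1). Genes needed 1 TPM in 3 or more libraries. Tests were two-sided, with Benjamini-Hochberg adjustment and a threshold of 0.05, giving 6.59 degrees of freedom with the prior. The fold change scale understates changes of low genes. The test was checked on simulated data with few changed genes and no replicate effect or length trend. That setting is unlike these data, so the check does not show how the test behaves here. TPM holds no depth, but library factors were found from ratios of low values, and whole reads fitted 100% of 27644 genes above 0 in at least 2 libraries (relative tolerance 1e-09). These smallest whole numbers may be a fraction of the true reads. No pair of libraries in a group agreed within sampling noise (chi-square per degree of freedom 7.33 to 95.1). Length, GC content and overlaps came from GENCODE 29 (96.9% of genes matched, by identifier or else symbol), on a build other than hg19. Promoter windows came from RefSeq, GRCh38.p14. Members and lists were chosen with earlier results of these data known. Named genes are all 35 members and, from each other list, up to 3 with the greatest change among those called, that reached 5 TPM on average in either group and had no overlapping libraries. Some genes that these lists hold are not reported here. Figures were drawn with matplotlib 3.10.9.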

Additional observations from a re-analysis of the deposited data

How the results depend on the processing

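The 21 other settings changed the pseudocount (0.1 or 0.5), the filter (none or 5 TPM), the scaling (quantile or median-of-ratios), the limma variance model (robust, or no trend), or used the replicate number as a block, no mitochondrial genes, protein-coding genes alone, length and GC trends removed (alone and with the block), a limma voom test of recovered reads, both replicate 1 libraries left out, and each library left out in turn. Of the 29 called genes 22 kept their call and direction in all settings in which they were tested, 21 for each gene but ACACB (18, as it fell below the filter without a TSA library). The others were HSD17B7, SCAP, ACLY, ACACA, SCD, ACSL4 and STARD4. The share of all called genes that kept their call in every setting was not computed. Over the 6 single left-out libraries 15 to 19 of the 35 genes were called higher and 7 to 10 lower, with the 7 lower without TSA replicate 2. Over all genes 3264 (without TSA replicate 3) to 4640 were called higher, against 4929, and 4578 to 6544 lower (the latter without TSA replicate 1), against 6013. Without both replicate 1 libraries 19 of the 35 were higher and 10 lower, against 4973 and 6386 of all genes. EBP, not called, turned to −0.05 without length and GC trends, with or without the block, and ran from −0.07 to 0.25 over single left-out libraries, below 0 without vehicle replicate 1 (−0.03), vehicle replicate 3 (−0.06), TSA replicate 2 (−0.07) or TSA replicate 3 (−0.01). STARD4 turned to 0.07 without those trends, with or without the block. A median-of-ratios scaling moved the median of all genes from −0.095 to 0.017 and a quantile scaling to 0.008, so a small change depends on the scaling. Of the 35 genes 18 and 20 were then higher and 8 lower under each, with 5417 and 5662 of all genes higher and 5322 and 5566 lower. The causes were not tested. Deviations from the group means correlated at 0.633, 0.590 and −0.073 between the vehicle and TSA libraries of replicate numbers 1, 2 and 3. The values for numbers 1 and 2 were the highest among all pairs of a vehicle and a TSA library. Vehicle replicate 3 had no close match and was nearest to TSA replicate 1. The replicate number thus went with shared deviations for numbers 1 and 2 but not for 3. The deviations of the 3 libraries of a group sum to 0 for each gene. These correlations therefore depend on one another, and the matches of numbers 1 and 2 are not separate observations. Whether libraries of the same number share a replicate effect was not tested. With the replicate number as a block 20 genes were called higher and 11 lower, 5637 and 6848 over all genes, and 49 and 27 of the further pathway genes against 45 and 25. Low counts limit ACACB in vehicle, where it was under 1 TPM.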

Other observations

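Genes that store and release neutral lipid were not among the 35. For the counts in this section, 28% of all tested genes rose and 34.2% fell. Of 16 tested genes of triacylglycerol and lipid droplets 7 rose, 3 fell and 6 did not pass the test. The lipid droplet coat genes went in opposite directions. PLIN2 had a mean of 95.1 ± 17.6 TPM in vehicle and 16.1 ± 2.94 TPM in TSA (SD, n = 3) and fell by 2.49 on the log2 scale (limma adjusted p 5.1e-05). PLIN3 was at 2.66, 3.45 and 2.71 TPM in vehicle and 42.5, 54.8 and 52.9 TPM in TSA (log2 fold change 3.69, limma adjusted p 8.8e-06). PNPLA2, the lipase that opens triacylglycerol, rose from 22.1, 25.9 and 21.0 TPM to 78.2, 99.7 and 115 TPM (log2 fold change 2.03, limma adjusted p 7.2e-05).

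Of 10 tested acyl-CoA synthetases and acyl carriers outside the 35 genes 5 rose and 4 fell. The fatty acid transport proteins, which also activate fatty acids, differed among themselves. SLC27A3 was at 58.2, 59.9 and 50.2 TPM in vehicle and 9.16, 7.04 and 9.19 TPM in TSA (log2 fold change −2.60, limma adjusted p 1.7e-05). SLC27A1 was at 0.193 to 0.309 TPM in vehicle and 8.53 to 10.2 TPM in TSA (limma adjusted p 1.2e-05), and passed the filter only through TSA. Of these 10 genes 8 were at 1 TPM or more in all vehicle libraries. SLC27A5 was at 2.15 to 3.09 and 7.41 to 9.17 TPM (limma adjusted p 0.00039).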
